A study of Homo sapiens with 10 samples.

Results

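The genes described here lie on human chromosome 22 and were measured by RNA sequencing in T47D spheroids. They were chosen by 3 criteria: an NCBI gene identifier placed on chromosome 22 of GRCh38, a mean of at least 100 counts over the 10 libraries, and a symbol outside 5 families treated apart (names beginning RPL, RPS, APOBEC3, NDUF or SNRP). Of the 13920 genes counted, 318 lay on chromosome 22, and 275 of these met all criteria. Another 37 fell under the count minimum, and 6 belonged to the excluded families. The members spanned positions 17085000 to 50783636, and 273 were protein coding and 2 were transcribed pseudogenes. The mean count was the measured value used for the choice, and the chromosome itself was picked with the low level in clone A2 already known. The 3 members just inside the minimum were RIBC2, CYP2D7 and TUBA8, with mean counts of 102.5, 109.3 and 131.1. The 3 genes just outside were PIK3IP1, EFCAB6 and GGT1, at 94.2, 90.8 and 82.8. RIBC2 reached the minimum only through clone A2, with a mean of 150.5 counts there and 90.5 over the 8 WT and clone A1 libraries. EFCAB6 stayed under it only through clone A2, with means of 52.0 and 100.5.

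T47D is an established human luminal breast cancer cell line, and a spheroid is a cell aggregate grown in 3 dimensions. WT cells were compared with SAMHD1-KO clones A1 and A2, made with a CRISPR-Cas9 construct against an exon of SAMHD1 that encodes its HD domain. All cells were T47D grown as spheroids, which the study's methods grow until the fourth day after seeding, and each knock-out was a single clone, so the clone and the loss of SAMHD1 cannot be told apart within it. WT and clone A1 had 4 libraries each, from experiments 10, 11, 15 and 16, whereas clone A2 had 2, from experiments 15 and 16. The clone A2 contrasts therefore used the 6 libraries of experiments 15 and 16. The paper describes biological duplicates of 2 knock-out clones, or 4 knock-out replicates, whereas clone A1 alone had 4 libraries here. The libraries of a group were taken as its replicates, and where they were not separate cultures the p-values measure technical spread.

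Most human cell types carry a pair of copies of each autosome, while breast cancer cell lines often carry other numbers and differ between clones of one line. The RNA level of many genes follows the number of gene copies, and when a whole chromosome is gained or lost its genes tend to move together by similar ratios. Chromosome 22 carries its protein coding genes on the long arm, and its proximal part holds the region deleted in 22q11.2 deletion syndrome. The comparison of clone A2 with clone A1 and WT asked how evenly the chromosome's genes moved, and which genes left the common level. DNA copy number was not measured in these files.

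Library totals ran from 40077369 to 51311482 counts. SAMHD1, the targeted dNTP hydrolase gene, measured 49.8 to 56.4 CPM (normalised counts scaled to a common library size) in the 4 WT libraries. In clone A1 it measured 22.5 and 23.0 CPM in experiments 10 and 11 and 6.44 and 6.15 CPM in experiments 15 and 16, and in clone A2 23.6 and 20.2 CPM. Of 8 luminal markers 7 were listed, with summed levels of 112 to 129 CPM in WT, 105 to 117 in clone A1 and 101 to 104 in clone A2, although ESR1, the estrogen receptor gene, and EPCAM, an epithelial adhesion gene, stayed between 0.183 and 1.59 CPM and between 0.348 and 1.78 CPM. The unlisted marker was the keratin gene KRT19. KRT18 was the largest part of the sum, at 36.3 to 60.3 CPM, whereas KRT8 measured 3.1 to 9.07 CPM. FOXA1 went against the sum, at 19.0 and 19.4 CPM in WT and 23.5 to 26.8 CPM in the clones of experiments 15 and 16. One of 4 fibroblast markers (COL1A1) and 1 of 3 leukocyte markers (CD14, at most 0.816 CPM) were listed, and the table holds only genes with a count in every library.

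Chromosome 22 genes were expressed at a lower level in clone A2 than in clone A1 or WT spheroids. The members took 1.74%, 1.85%, 1.73% and 1.71% of all counts in the WT libraries of experiments 10, 11, 15 and 16. In clone A1 their share was 1.74%, 1.78%, 1.69% and 1.76% in the same order, and in clone A2 it was 1.27% and 1.26% in experiments 15 and 16. Both clone A2 libraries lay below all 8 others. On a log2 scale the median member deviated from the WT mean by between -0.04 and 0.08 in the 8 WT and clone A1 libraries, and by -0.48 and -0.54 in clone A2. Genes of the other chromosomes had a median deviation of 0.01 in both clone A2 libraries. In bulk RNA, fewer cells of a type and less RNA per cell cannot be told apart.

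**Figure D1:**
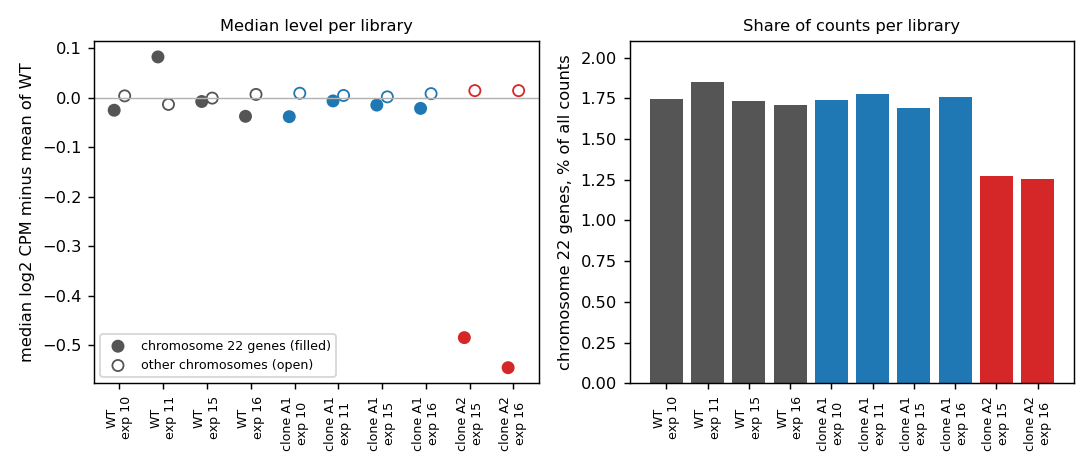
Left, median log2 CPM relative to the WT mean in each of 10 libraries, for 275 chromosome 22 genes (filled) and genes of other chromosomes (open); right, the percentage of all counts in the 275 genes, with bars from 0. The clone A2 libraries sit at -0.48 and -0.54 on the left and at 1.27% and 1.26% on the right, below the other 8.

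Between clones, the 275 members had a median log2 fold change of -0.50 in clone A2 against clone A1, a level 29.5% lower, with an interquartile range of -0.60 to -0.43. Of the members 274 had a negative value. In edgeR's quasi-likelihood test 239 were called lower at an adjusted p under 0.05 and 0 were called higher (264 passed an unadjusted p of 0.05), where 4.16% of all genes tested were called lower and 2.0% higher. Against WT the median was -0.49, a level 28.7% lower, with 244 members lower and 0 higher (257 at an unadjusted p of 0.05), where 11.4% of all genes were called lower and 9.75% higher. The median over all genes tested was 0.00 in both contrasts. With all 10 libraries in the fit 136 were called lower against clone A1 and 152 against WT, where 1.55% and 2.21% of all genes were called. The counts were 221 and 232 when the experiment number was added as a block, where 4.24% and 9.03% of all genes were called. These contrasts share the clone A2 libraries, and their counts are a description, since the chromosome was chosen on them. In 227 members the call was lower in both, and in 19 it was made in neither. Of 36 members not called against clone A1, 27 belonged to the 69 members with the lowest counts.

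The levels of single genes rarely overlapped between the groups. Clone A2 lay below both clone A1 libraries of experiments 15 and 16 in 267 of 275 members, where 24.3% of all genes did so. It lay below both WT libraries of those experiments in 264 members (29.7% of all genes) and below all 8 WT and clone A1 libraries in 231 (9.12% of all genes). Within experiment 15 the median difference between clones A2 and A1 was -0.48, and within experiment 16 it was -0.53. It was below 0 in both experiments for 270 members. The order of members across the 2 experiments was related by r = 0.514 and rho = 0.424 over 275 genes, which share libraries within each experiment.

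Other chromosomes showed no shift of this size. Over the 22 others (21 autosomes and X) the median log2 fold change of clone A2 against clone A1 ran from -0.03 to 0.06, and that against WT from -0.16 to 0.15. Between 0.93% and 5.65% of the genes of each were called lower against clone A1. For scale, 2 in place of 3 equal units is -0.585 in log2 and 3 in place of 4 is -0.415, and the member median lay between them. Whether copy number accounts for the level was not tested.

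**Figure D2:**
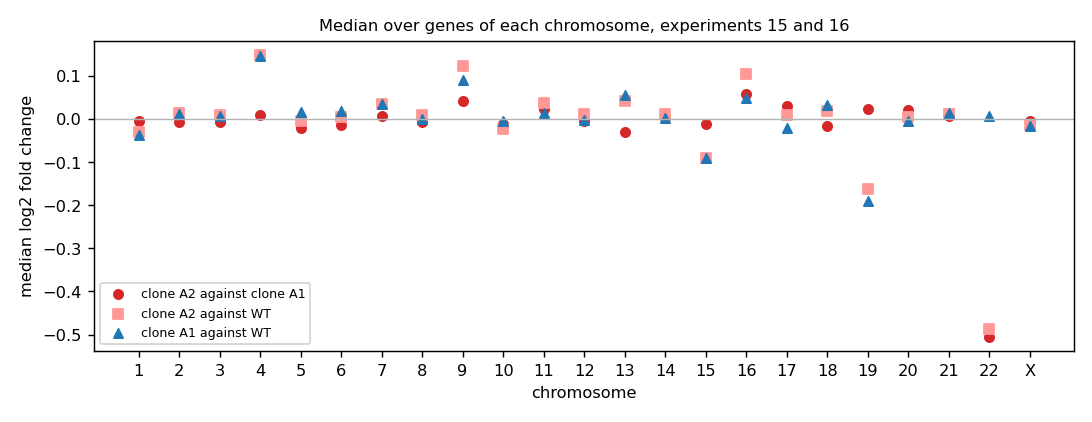
Median log2 fold change over the genes of each chromosome with a mean count of at least 100, in experiments 15 and 16, for clone A2 against clone A1 (circles), clone A2 against WT (squares) and clone A1 against WT (triangles). Both clone A2 medians are near -0.5 on chromosome 22, whereas the other chromosomes lie between -0.16 and 0.15 in these contrasts.

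The shift extended over the whole measured long arm. In windows of 5 Mb from position 15 Mb to 55 Mb, the median for clone A2 against clone A1 lay between -0.54 (45 to 50 Mb, 20 genes) and -0.48 (50 to 55 Mb, 20 genes). At the proximal end the 28 genes between 15 and 20 Mb had a median of -0.51. No window departed from the others by more than 0.06, and every window held genes called lower, from 23 of 30 to 26 of 28. In 4 equal classes of mean count the medians were -0.51, -0.53, -0.49 and -0.47 from low to high. In 3 classes of gene span they were -0.52, -0.49 and -0.50 from short to long. Around the member median, 54.9% of the members lay within 0.1, 85.1% within 0.2 and 97.1% within 0.5 on the log2 scale.

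Against WT the windows were less even. The median for clone A2 was -0.39 at 15 to 20 Mb, -0.42 at 20 to 25 Mb, -0.54 at 30 to 35 Mb and -0.57 at 50 to 55 Mb. Clone A1 against WT, in the same experiments, had medians of 0.10, 0.07, -0.06 and -0.08 in these 4 windows. It was 0.05 at 25 to 30 Mb and -0.01 in each window from 35 to 50 Mb, so the fall was not steady. Experiments 10 and 11, whose libraries also served in the count minimum, were fitted apart. There the clone A1 medians were 0.05, -0.02, -0.11 and -0.11 in these windows. They were -0.02 at 25 to 30 Mb, and -0.07, -0.03 and -0.05 at 35 to 40, 40 to 45 and 45 to 50 Mb. Both pairs of experiments thus had their highest clone A1 median in the most proximal window. These are descriptions over neighbouring genes and carry no test.

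**Figure D3:**
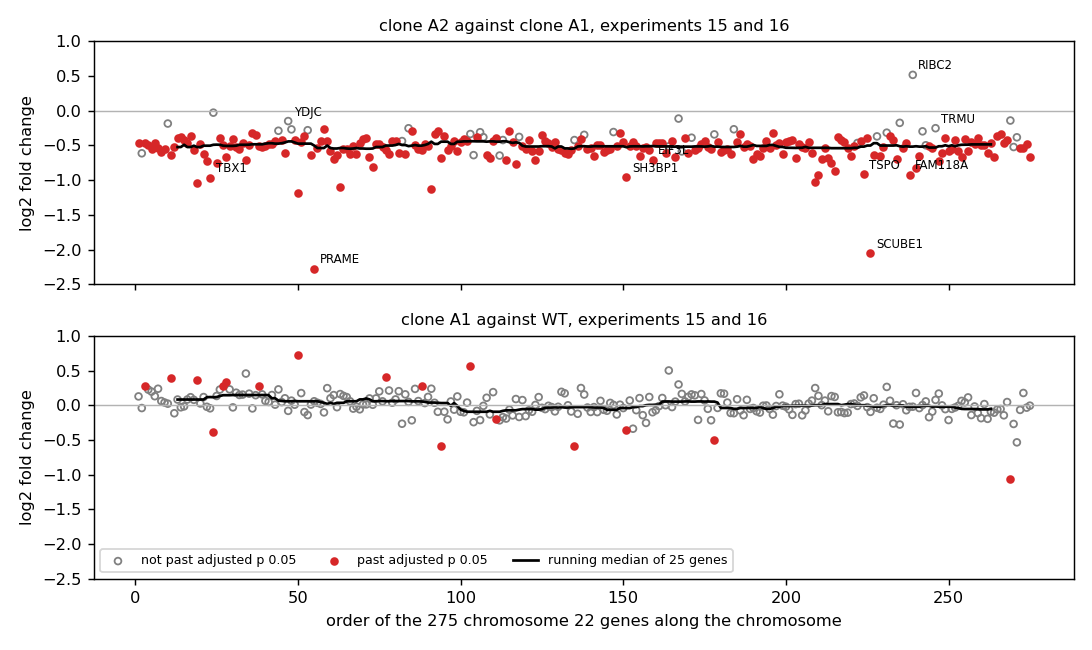
Log2 fold change of each of the 275 genes in order along the chromosome, for clone A2 against clone A1 (top) and clone A1 against WT (bottom), with the running median of 25 genes as a line and red points past adjusted p 0.05. The top line stays near -0.5 from end to end, with PRAME and SCUBE1 below -2, and the bottom line stays near 0.

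The members nearest the median in both contrasts show what the common level looks like in single genes. PARVB, which encodes the focal adhesion protein beta-parvin, measured 41.7, 39, 43.5 and 41.4 CPM in WT (experiments 10, 11, 15 and 16) and 37.8, 40.0, 42.5 and 43.0 CPM in clone A1. In clone A2 it measured 29.7 and 30.1 CPM, below all 8 other libraries. Against clone A1 this was -0.52 in log2 (SE 0.07, edgeR adjusted p = 0.000197), and against WT -0.51 (SE 0.07, edgeR adjusted p = 0.000115). PACSIN2, a membrane-bending protein of endocytosis, measured 54.3 to 62.3 CPM in WT, 54.9 to 59.8 CPM in clone A1 and 41.6 and 41.7 CPM in clone A2. ZC3H7B, MAPK12 and SELENOO completed the 5, with values between -0.50 and -0.47 in both contrasts. All 5 were called lower in both, and with all 10 libraries the call of SELENOO against clone A1 was lost, at -0.41.

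Among the highest counted members, MIF, DDX17, XRCC6, ATF4, EIF3L and EWSR1, all 6 were lower in clone A2 in both contrasts. DDX17, an RNA helicase, measured 553 to 600 CPM in WT, 573 to 670 CPM in clone A1 and 419 and 438 CPM in clone A2, although it overlaps KDELR3. ATF4, the transcription factor of the integrated stress response, measured 469 to 524 CPM in WT, 486 to 558 CPM in clone A1 and 396 and 385 CPM in clone A2. Neither gene's clone A2 values reached those of the other libraries. MIF, a cytokine, behaved differently between experiments. It measured 500, 578, 699 and 561 CPM in WT, 449, 429, 733 and 636 CPM in clone A1, and 484 and 456 CPM in clone A2. The clone A2 values thus lay above those of clone A1 from experiments 10 and 11, and the MIF call against clone A1 (-0.54, edgeR adjusted p = 0.00667) was lost with all 10 libraries, at -0.26. It was also lost without the clone A1 library of experiment 15, at -0.44, and without the clone A2 library of experiment 15 or 16, at -0.59 and -0.50.

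The genes of the region deleted in 22q11.2 deletion syndrome followed the chromosome against clone A1. Of 37 listed genes 31 were members, with a median of -0.48, and 29 of them were called lower and 0 higher. Against WT the median was -0.37, with 26 called lower. Clone A1 against WT had a median of 0.12, with 4 called higher and 1 lower. Of all genes 6.44% were called higher and 6.74% lower there. With all 10 libraries 0 members were called in clone A1 against WT. RANBP1, a partner of the nuclear transport GTPase Ran, measured 192 to 218 CPM in WT, 204 to 238 CPM in clone A1 and 162 and 159 CPM in clone A2, and it overlaps TRMT2A. CRKL, a signalling adaptor, had a log2 fold change of -0.47 against clone A1 (edgeR adjusted p = 0.000124) and -0.33 against WT (edgeR adjusted p = 0.00129). The extremes of the list against clone A1 were C22orf39, at -1.03, and GNB1L, at -0.03. These 2 also moved in clone A1 against WT, at 0.37 and -0.39. In clone A2 against WT they were both called lower, at -0.66 and -0.42, near the member median there. The members of all lists were chosen with earlier results of these data known. For this list and those below, 4.16% of all genes were called lower and 2.0% higher against clone A1. Against WT these shares were 11.4% and 9.75%.

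Mitochondrial protein genes numbered 24 of 26 listed, with medians of -0.52 against clone A1 (20 lower, 0 higher) and -0.58 against WT (21 lower, 0 higher). SLC25A1, the citrate carrier, had log2 fold changes of -0.42 and -0.44 against clone A1 and WT (edgeR adjusted p = 0.000914 and 0.000323). CYB5R3, a cytochrome b5 reductase, had values of -0.54 and -0.64. NIPSNAP1, a mitochondrial matrix protein, had values of -0.50 and -0.45.

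Genes of RNA processing and translation were all 24 members, with 22 lower and 0 higher in each clone A2 contrast and medians of -0.45 and -0.48. EIF3D, a subunit of the translation initiation factor eIF3 that binds the mRNA cap, measured 244 to 291 CPM in WT, 226 to 280 CPM in clone A1 and 168 and 159 CPM in clone A2. EWSR1, an RNA-binding protein known from Ewing sarcoma fusions, was called lower and lay above the median member, at -0.30 (SE 0.06, edgeR adjusted p = 0.00338) against clone A1. Of 24 genes of transcription and chromatin, 20 were lower against clone A1 and 22 against WT. SREBF2, the activator of cholesterol synthesis genes, measured 204 to 231 CPM in WT, 213 to 244 CPM in clone A1 and 142 and 143 CPM in clone A2. CBX6, a polycomb protein, had values of -0.45 and -0.49.

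All 9 genes of DNA replication and repair were lower in both contrasts. XRCC6, the Ku70 subunit of DNA end joining, measured 506 to 514 CPM in WT, 441 to 540 CPM in clone A1 and 331 and 314 CPM in clone A2. MCM5, a subunit of the replicative helicase, measured 156 to 197 CPM in WT, 144 to 175 CPM in clone A1 and 108 and 99.7 CPM in clone A2. No clone A2 library of these genes overlapped another group. RANGAP1, the activator of the Ran GTPase, was called lower in both, at -0.32 against clone A1 and -0.46 against WT, and it overlaps ZC3H7B. CHEK2, a checkpoint kinase of the DNA damage response, gave -0.29 (edgeR adjusted p = 0.0413) and -0.51 (edgeR adjusted p = 0.000323), and it was singled out after its values were seen.

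In the remaining lists most members were lower as well. Ubiquitin and proteolysis genes were lower in 11 of 11 members against clone A1 and 10 of 11 against WT, with values of -0.61 and -0.51 for UBE2L3, a ubiquitin-conjugating enzyme that overlaps RIMBP3C. FBXO7, an F-box protein linked to Parkinson disease, gave -0.56 and -0.58. Of 15 signalling and tumour genes among 17 listed, 15 were lower in each contrast, with PIM3, a serine-threonine kinase, at -0.41 and -0.37. Cytoskeleton genes were lower in 11 of 11 members in each contrast, with MYH9, the heavy chain of non-muscle myosin IIA, at -0.55 and -0.58. Membrane traffic genes were lower in 12 of 12 and 11 of 12 members, with GGA1, a Golgi clathrin adaptor, at -0.44 and -0.48. Lipid enzyme genes were lower in 8 and 9 of 10 members, with PITPNB, a phosphatidylinositol transfer protein, at -0.62 and -0.46. None of these lists had a member called higher in a clone A2 contrast, and list medians against clone A1 lay between -0.52 and -0.45, beside -0.50 for all members and 0.00 for all genes.

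Subunits of protein complexes are usually needed in fixed proportions, so chromosome 22 subunits were set beside their partners encoded elsewhere. In 11 complexes, 12 subunits lay on chromosome 22, and their median was -0.47 against clone A1, with 11 lower and 0 higher. The calls of PHF5A and AP1B1 against clone A1 were lost with all 10 libraries, at -0.37 and -0.47. The 57 listed partners on other chromosomes had a median of 0.00, with 1 lower (AP1S2, -0.33) and 1 higher (SF3B3, 0.38). Against WT the medians were -0.59, with 12 lower, and -0.07, with 15 lower and 2 higher. Of all genes 4.16% were called lower and 2.0% higher against clone A1, and 11.4% and 9.75% against WT. The partners ranged from -0.62 to 0.26 against WT and overlapped the chromosome 22 subunits, at -0.80 to -0.45. SMARCB1, a core subunit of the SWI/SNF chromatin remodeller that overlaps DERL3, measured 121 to 139 CPM in WT, 122 to 128 CPM in clone A1 and 84.6 and 77.4 CPM in clone A2. The 8 other SWI/SNF subunits lay between -0.15 and 0.11 against clone A1, and SMARCB1 at -0.64. For eIF3, EIF3D and EIF3L were at -0.49 and -0.70, while the 11 partners lay between -0.19 and 0.19. SF3A1, a splicing factor subunit that overlaps CCDC157, was not called against clone A1, at -0.31 (SE 0.10, edgeR adjusted p = 0.116), and rested on single libraries. It was called without the clone A1 library of experiment 15, at -0.49, and was -0.11 and not called without that of experiment 16.

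**Figure D4:**
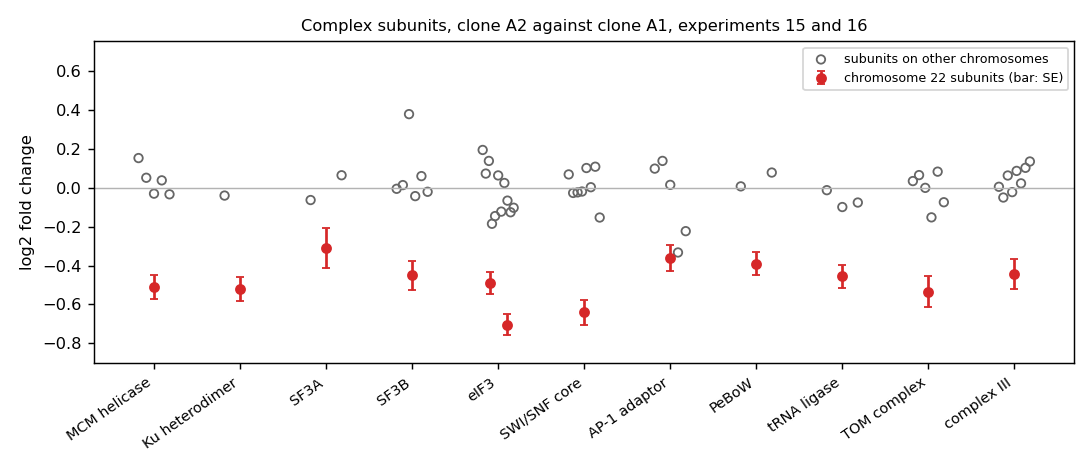
Log2 fold change of clone A2 against clone A1 for subunits of 11 protein complexes, with chromosome 22 subunits in red (bar, SE) and subunits encoded on other chromosomes as open circles. The 12 red points lie between -0.70 and -0.31, and the 57 open points between -0.33 and 0.38.

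Exceptions were sought with a second fit, in which each library's median over the genes of a chromosome was taken out for every chromosome, so that a member was tested against the common level of chromosome 22. A member was taken as departing at an adjusted p under 0.05 with the same sign in both clone A2 contrasts. Against clone A1, 11 members were below the chromosome's level and 5 above, where 2.21% of all genes were below and 1.57% above their own chromosome's level. Against WT 21 were below and 18 above, or 7.64% and 6.55% of the members, where the shares of all genes were 8.48% and 8.39%. With the experiment number as a block the 16 and 39 departures became 32 and 78, or 11.6% and 28.4% of the members, where 11.3% and 27.9% of all genes were called in the same fit. With all 10 libraries and no block they became 0 and 1 (32 and 53 members at an unadjusted p of 0.05), where 0.194% and 0.302% of all genes were called. With all 10 libraries and the block they became 10 and 17, or 3.64% and 6.18% of the members, where 1.87% and 6.08% of all genes were called. The members' share was thus below that of all genes against WT in the unblocked fit of 6 libraries, near it in the 6-library blocked fit, and above it against clone A1 in the unblocked fit of 6 libraries and the blocked fit of 10. In both contrasts, which share the clone A2 libraries, 7 members were below (PRAME, SCUBE1, TBX1, SH3BP1, FAM118A, TSPO and EIF3L) and 3 above (RIBC2, YDJC and TRMU). These were 2.55% and 1.09% of the members, where 1.29% and 0.898% of all genes departed in both contrasts in that direction. RIBC2 is counted here, but it met the count minimum only through its high level in clone A2, so its place above the chromosome is a description.

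PRAME, a cancer-testis antigen presented to T cells (chr22:22547701-22559265, GRCh38), showed the lowest value of the chromosome. It measured 5.27, 3.73, 4.24 and 3.80 CPM in WT and 2.94, 3.20, 4.55 and 3.81 CPM in clone A1, in experiments 10, 11, 15 and 16. In clone A2 it measured 1.05 and 0.683 CPM, below all 8 others. Against clone A1 this was a log2 change of -2.28 (SE 0.22, edgeR adjusted p = 1.26e-05), and against WT one of -2.22 (SE 0.22, edgeR adjusted p = 6.97e-06), a level 79.4% and 78.5% lower. Relative to the chromosome the values were -1.77 and -1.72, and its departure was called in 12 of 13 alternative versions of the centred fit against clone A1 and 13 of 13 against WT.

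SCUBE1, a secreted and membrane-associated EGF-domain glycoprotein (chr22:43197280-43343372), came next. It measured 6.27, 7.26, 4.39 and 4.50 CPM in WT, 6.61, 8.31, 4.04 and 4.29 CPM in clone A1, and 1.17 and 0.859 CPM in clone A2. Its log2 fold changes were -2.05 (SE 0.20, edgeR adjusted p = 1.07e-05) against clone A1 and -2.14 (SE 0.20, edgeR adjusted p = 3.07e-06) against WT. The departure was called in 12 of 13 versions in each contrast, all but the fit of all 10 libraries, where the adjusted p was 0.0532 and 0.0523. PRAME and SCUBE1 were the only members below -2 against either group.

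TBX1, the T-box transcription factor linked to the heart defects of 22q11.2 deletion syndrome (chr22:19756703-19783593), measured 32.2, 32.3, 34.3 and 31.4 CPM in WT and 37.1, 33.5, 32.5 and 31.2 CPM in clone A1. In clone A2 it measured 18.6 and 14.2 CPM, with no overlap. Against clone A1 this was -0.97 in log2 (SE 0.10, edgeR adjusted p = 2.76e-05), and against WT -1.01 (SE 0.10, edgeR adjusted p = 8.42e-06). The departure was called in 10 of 13 versions against clone A1 and 12 of 13 against WT, and it was lost against clone A1 without the clone A1 library of experiment 15 or the clone A2 library of experiment 16. GNB1L, whose gene model overlaps that of TBX1, measured 10.7 to 14.4 CPM in WT, 7.75 to 13.5 CPM in clone A1 and 8.37 and 8.53 CPM in clone A2. GNB1L was not called against clone A1, at -0.03 (SE 0.12, edgeR adjusted p = 0.929). Against WT it was called lower, at -0.42 (SE 0.12, edgeR adjusted p = 0.0193). How shared reads were divided between the overlapping models is not given in the sources used here.

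SH3BP1, a GTPase-activating protein for Rac (chr22:37639669-37656117), measured 28.0, 27.9, 21.5 and 21.0 CPM in WT, 24.8, 27.5, 16.5 and 16.8 CPM in clone A1, and 9.96 and 7.28 CPM in clone A2. It was lower in clone A1 than in WT as well in experiments 15 and 16 (log2 fold change -0.36, edgeR adjusted p = 0.047). That call was lost with all 10 libraries. FAM118A (chr22:45308960-45341955) measured 72.4 to 75.8 CPM in WT, 65.3 to 76.5 CPM in clone A1 and 41.2 and 37.6 CPM in clone A2, a log2 change of -0.92 against clone A1 (SE 0.07, edgeR adjusted p = 6.32e-07). EIF3L (chr22:37849419-37889407) measured 382 to 496 CPM in WT, 358 to 485 CPM in clone A1 and 224 and 217 CPM in clone A2. In all 3 the clone A2 libraries lay below every other. The departure of FAM118A was called in 12 of 13 versions in each contrast, and that of EIF3L in 4 of 13 against clone A1 and 12 of 13 against WT. The departure of EIF3L against clone A1 was lost whichever of the 6 libraries was left out. For SH3BP1 it was 9 of 13 and 12 of 13, and the call against clone A1 was lost without either clone A1 library or the clone A2 library of experiment 16.

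TSPO, the cholesterol-binding translocator protein of the outer mitochondrial membrane (chr22:43151559-43163242), depended on the experiments compared. It measured 25.2, 26.7, 43.8 and 37.0 CPM in WT, 19.2, 20.3, 47.5 and 41.7 CPM in clone A1, and 24.6 and 23.0 CPM in clone A2. The clone A2 values were low beside experiments 15 and 16 but within the range of experiments 10 and 11. With all 10 libraries its departure turned to 0.07 against clone A1 and 0.04 against WT, and it was not called. It was called in 8 of 13 versions against clone A1 and 7 of 13 against WT.

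Of the 3 members above the chromosome's level, RIBC2, a protein of ciliary microtubules (chr22:45413693-45432509), was the only member with a positive value against clone A1. It measured 1.56, 2.31, 2.32 and 2.14 CPM in WT, 1.62, 1.46, 2.70 and 1.70 CPM in clone A1, and 3.39 and 2.93 CPM in clone A2. Both clone A2 values exceeded all others, although the uncentred log2 fold changes, 0.52 against clone A1 (SE 0.22, edgeR adjusted p = 0.196) and 0.50 against WT (SE 0.22, edgeR adjusted p = 0.119), were not called. Relative to the chromosome they were 1.03 and 1.00. This departure was called in 9 of 13 versions against clone A1, with values of 0.73 to 1.39, and in 12 of 13 against WT. It was lost in both with all 10 libraries. RIBC2 was also the member with the lowest mean count, and its uncentred value against clone A1 was 0.22 without the clone A1 library of experiment 16 and 0.89 without that of experiment 15. TRMU, the enzyme that thiolates mitochondrial tRNAs (chr22:46335714-46357340), measured 38.3 to 44.5 CPM in WT, 40.3 to 45.5 CPM in clone A1 and 39.9 and 35.9 CPM in clone A2, and its groups overlapped. YDJC, a putative carbohydrate deacetylase (chr22:21628089-21630022), measured 31.3 to 37.3 CPM in WT, 30.1 to 37.7 CPM in clone A1 and 29.3 and 28.8 CPM in clone A2. TRMU and YDJC had log2 fold changes of -0.25 and -0.15 against clone A1, and were not called in the uncentred fit, although TRMU was called there with the experiment number as a block, at -0.25. Without the clone A1 library of experiment 15 the value of YDJC was -0.05, and without that of experiment 16 it was -0.24. The departure of YDJC was called in 9 of 13 versions against clone A1 and 8 of 13 against WT. That of TRMU was called in 6 of 13 and 11 of 13, and against clone A1 it was lost whichever of the 6 libraries was left out.

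**Figure D5:**
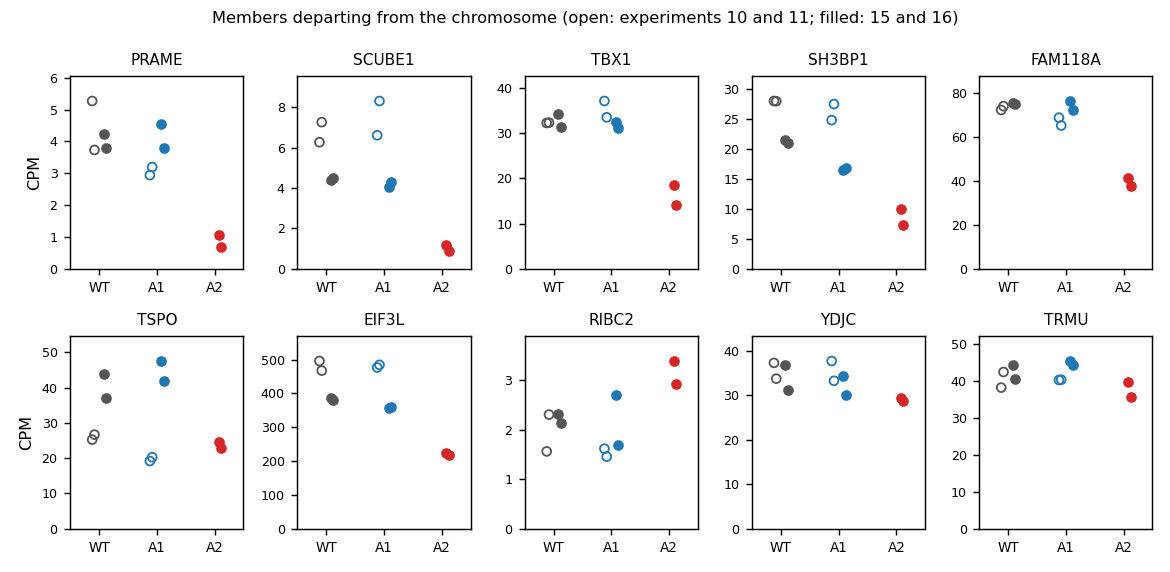
CPM of the 10 members that departed from the chromosome's level in both contrasts, per library, with experiments 10 and 11 open and 15 and 16 filled; each axis starts at 0. Clone A2 (red) lies below all other libraries for PRAME, SCUBE1, TBX1, SH3BP1, FAM118A, EIF3L and YDJC, within the range of experiments 10 and 11 for TSPO, and above all others for RIBC2.

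The sequences around the start sites are shown for 2 members below the common level and 2 above it, to set the letters of the genes that departed side by side. They are the 300 bases from 250 before to 50 after the RefSeq gene start on GRCh38.p14, written 5′ to 3′ along the gene's own strand, with CG dinucleotides in capitals. The windows are chr22:22559216-22559515 on the minus strand for PRAME, chr22:19756453-19756752 on the plus strand for TBX1, chr22:45413443-45413742 on the plus strand for RIBC2 and chr22:21629973-21630272 on the minus strand for YDJC.
PRAME: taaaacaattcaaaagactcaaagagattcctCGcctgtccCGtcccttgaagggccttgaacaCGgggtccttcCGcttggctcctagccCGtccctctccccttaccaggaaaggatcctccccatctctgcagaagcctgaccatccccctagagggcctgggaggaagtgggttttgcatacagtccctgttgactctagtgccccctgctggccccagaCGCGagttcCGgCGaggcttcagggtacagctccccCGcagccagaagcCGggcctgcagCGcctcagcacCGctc
TBX1: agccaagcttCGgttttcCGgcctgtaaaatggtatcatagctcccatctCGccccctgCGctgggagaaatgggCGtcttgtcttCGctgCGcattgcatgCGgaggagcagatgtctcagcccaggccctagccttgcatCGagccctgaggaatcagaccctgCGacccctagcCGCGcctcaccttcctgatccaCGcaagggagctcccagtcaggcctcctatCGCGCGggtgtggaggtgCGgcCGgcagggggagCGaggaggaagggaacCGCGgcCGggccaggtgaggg
RIBC2: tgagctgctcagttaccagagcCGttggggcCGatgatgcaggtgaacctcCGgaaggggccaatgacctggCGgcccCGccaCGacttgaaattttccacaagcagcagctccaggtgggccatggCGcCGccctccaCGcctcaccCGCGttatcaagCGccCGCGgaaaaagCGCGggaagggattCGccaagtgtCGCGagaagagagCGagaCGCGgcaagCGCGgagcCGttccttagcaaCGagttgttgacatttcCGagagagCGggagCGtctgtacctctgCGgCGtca
YDJC: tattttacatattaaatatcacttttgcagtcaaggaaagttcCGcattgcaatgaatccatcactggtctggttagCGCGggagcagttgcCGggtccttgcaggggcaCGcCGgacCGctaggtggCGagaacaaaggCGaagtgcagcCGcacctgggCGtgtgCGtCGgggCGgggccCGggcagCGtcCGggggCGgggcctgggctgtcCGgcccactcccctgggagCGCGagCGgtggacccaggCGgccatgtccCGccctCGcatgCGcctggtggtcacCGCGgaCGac
The PRAME window holds 13 CG dinucleotides, that of TBX1 22, that of RIBC2 31 and that of YDJC 29. RefSeq promoters were matched for 204 of 275 members, with a median of 32.5 CG dinucleotides, against 14 over 35116 promoters of all genes. Those 35116 were not limited to counted genes, whereas the members had to pass a count minimum. Differences between these sets therefore cannot be credited to the chromosome. The GC box GGGCGG, searched on both strands, was found in the windows of RIBC2 and YDJC and not in those of PRAME and TBX1. It did not divide the departing members by direction, since TSPO, below the common level, also held it, with 33 CG dinucleotides. It was found in 78.9% of the members' windows and 45.0% of all windows. TATAAA, on both strands, was in 3.9% of the members' windows and 11.5% of all, and CCAAT, on both strands, in 35.8% and 34.6%. The FAM118A window held 1 CG dinucleotide, and 96.0% of all promoters held at least as many. SCUBE1, SH3BP1 and EIF3L had no sequence.

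In clone A1 the chromosome as a whole stayed at the WT level. The members' median was 0.01 in experiments 15 and 16, with 7 lower and 10 higher (56 at an unadjusted p of 0.05), where 6.74% of all genes were lower and 6.44% higher. With all 10 libraries 0 members and 0.0% of all genes were called by edgeR (13 members at an unadjusted p of 0.05). None of the clone A1 calls named above or below thus held there. With the block added to all 10 libraries 5 members and 1.56% of all genes were called. With the experiment number as a block in the 6 libraries, 20 were lower and 31 higher, or 18.5% of the members, where 23.3% of all genes were called. In experiments 10 and 11 the median was -0.05, with 0 called by edgeR (23 at an unadjusted p of 0.05), where 0.0862% of all genes were lower and 0.0% higher. The block gave 11 called members there, where 1.65% of all genes were called. Leaving out the WT library of experiment 10 gave 73, where 22.6% of all genes were called. Leaving out the WT library of experiment 11 gave 3 and the clone A1 library of experiment 11 gave 2, where 0.546% and 0.266% of all genes were called.

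The 5 largest called decreases in clone A1 were in SCO2, GAS2L1, HMOX1, NPTXR and GNB1L. SCO2, a copper chaperone for cytochrome c oxidase that overlaps NCAPH2 and TYMP, measured 6.22, 7.57, 9.83 and 10.2 CPM in WT, 5.58, 3.76, 4.93 and 4.70 CPM in clone A1, and 4.51 and 4.26 CPM in clone A2. Both clones thus lay below every WT library. Clone A1 against WT gave -1.06 in log2 (SE 0.12, edgeR adjusted p = 5.92e-05), and clone A2 against clone A1 gave -0.14 (SE 0.13, edgeR adjusted p = 0.604). HMOX1, the heme oxygenase induced by oxidative stress, measured 8.75 to 12.3 CPM in WT, 6.33 to 9.72 CPM in clone A1 and 5.65 and 5.97 CPM in clone A2. Clone A1 against WT gave -0.58 (SE 0.14, edgeR adjusted p = 0.0156), and its groups overlapped over the 4 experiments. GAS2L1 and NPTXR had values of -0.59 and -0.50 in the same contrast.

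The 5 largest called increases in clone A1 were in YPEL1, LIF, ASPHD2, USP18 and C22orf39. YPEL1, which overlaps PPIL2, measured 5.05, 7.67, 10.8 and 10.3 CPM in WT, 5.78, 6.83, 17.5 and 17.3 CPM in clone A1, and 7.96 and 7.44 CPM in clone A2. Clone A1 was thus higher in experiments 15 and 16, by 0.72 (SE 0.10, edgeR adjusted p = 0.00019), while in experiments 10 and 11 the 2 groups overlapped. Clone A2 against WT was -0.46 (SE 0.10, edgeR adjusted p = 0.00466), close to the chromosome's level. LIF, an IL-6 family cytokine, measured 2.78, 4.39, 3.02 and 2.73 CPM in WT, 2.12, 3.20, 4.50 and 3.99 CPM in clone A1, and 3.36 and 3.38 CPM in clone A2. Clone A1 against WT gave 0.56 (SE 0.17, edgeR adjusted p = 0.0346) in experiments 15 and 16 and -0.43 (edgeR adjusted p = 0.752) in experiments 10 and 11. USP18, the protease that removes ISG15, had 0.39 (SE 0.10, edgeR adjusted p = 0.0204), and C22orf39 0.37 (SE 0.08, edgeR adjusted p = 0.00494).

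The effect of clone A1 changed between the pairs of experiments by a median of 0.04 over the members. One member, FBLN1, passed the interaction test, where 1.91% of all genes did. The block gave 14, or 5.09% of the members, where 7.77% of all genes passed. Leaving out the WT library of experiment 10 gave 20 and that of experiment 11 gave 5, where 8.35% and 4.02% of all genes passed. Leaving out the WT library of experiment 16, or the clone A1 library of experiment 10, 15 or 16, gave 0. FBLN1 encodes fibulin-1, a glycoprotein of the extracellular matrix. It measured 74.9, 86.5, 101 and 97.0 CPM in WT, 55.0, 66.3, 111 and 114 CPM in clone A1, and 64.7 and 61.7 CPM in clone A2. Clone A1 lay below WT in experiments 10 and 11 and above it in 15 and 16, and the change was 0.59 (edgeR adjusted p = 0.0257).

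Most genes of the chromosome that were not members were also below 0. NDUFA6, RPL3, SNRPD3, APOBEC3C, RPS19BP1 and APOBEC3F, set aside by family, were all called lower in both contrasts, from -0.66 (APOBEC3F) to -0.27 (RPL3) against clone A1. The 37 genes under the count minimum had a median of -0.63 against clone A1, with 33 below 0, 10 called lower and 0 called higher (17 at an unadjusted p of 0.05). Against WT their median was -0.44, with 29 below 0, 9 called lower and 0 called higher (13 at an unadjusted p of 0.05).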

How the data were processed

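The authors sequenced stranded poly(A) RNA libraries (TruSeq) from 10 spheroid samples and, per the labels and the study's methods, aligned reads with HISAT2 to GRCh38. The counting program and its strand setting are not given in the sources used here. The deposited values are whole-number counts per gene, not normalized, and genes with a 0 in any library had been removed, which leaves 13920. NCBI identifiers were matched to a RefSeq gene table (GRCh38.p14) for 13885 of these, and 35 were left unplaced. There were 0 columns without a sample.

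Counts were tested with edgeR 4.0.16 (R 4.3.3; TMM, robust quasi-likelihood, Benjamini-Hochberg over all genes, threshold 0.05) in the 6 libraries of experiments 15 and 16. CPM are TMM-normalised and not corrected for gene length, so levels are compared within a gene only. WT and clone A1 of experiments 10 and 11 were fitted apart, and the change of the clone A1 effect over 8 libraries. In the chromosome-centred fit, each library's median log2 CPM deviation (prior count 2) over the genes of a chromosome with a mean count of at least 100 was an offset, for chromosomes with at least 20 such genes. Centred values thus subtract the chromosome's own shift. Scripts were tested on simulated data.

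The members, gene lists and tests were chosen with earlier results of these data known. The named genes were those departing from the chromosome in both contrasts, the 6 with the highest CPM, the 5 nearest the median, the 4 highest of each list, the largest changes of clone A1, complex subunits and genes at the count minimum. Some genes that this rule named are not reported here. Same-numbered WT and clone A1 libraries deviated together over all 4 experiments (correlations of deviations 0.574 to 0.702), and differently numbered libraries of the same pair of experiments nearly as much (0.481 to 0.603). In the 6 libraries of experiments 15 and 16 same-numbered libraries correlated at 0.172 to 0.297. The main fits did not pair the libraries by number, and only the blocked alternatives did. Blocked values stand beside results they moved by over 1.5 times. Replicates of a group differed by more than sampling noise (chi-square per degree of freedom 6.739 or more). Alternatives were DESeq2 1.42.0, limma 3.58.1, other size factors, a low count filter, all 10 libraries, the block, a local chromosome median and leaving out each library.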

Additional observations from a re-analysis of the deposited data

Results flagged for a closer look

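Among 62 sets of replicate libraries examined for an outlying library (31 named members and shares), 2 were flagged, where chance gives about 1 in 20. ZC3H7B, a zinc finger protein, measured 142 CPM in the WT library of experiment 11, and the other WT libraries measured 131 to 132 CPM. TOMM22, a receptor of the mitochondrial import pore, measured 83.0 CPM in the WT library of experiment 15, and the others measured 68.6 to 69.2 CPM.

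FBLN1 was flagged because its clone A1 effect differed between the pairs of experiments, by 0.59 in the interaction test (edgeR adjusted p = 0.0257). Its call was lost when the WT library of experiment 16, or the clone A1 library of experiment 10, 15 or 16, was left out.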

How the results depend on the processing

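With all 10 libraries in 1 fit, 136 members were called in clone A2 against clone A1, 152 against WT and 0 in clone A1 against WT, the median against WT was -0.5237, and departures were 0 and 1. With the replicate block added to all 10 libraries, departures numbered 10 and 17, calls of clone A2 221 and 232, and calls of clone A1 against WT 5, where 1.87%, 6.08%, 4.24%, 9.03% and 1.56% of all genes were called. With a replicate block by experiment in the 6 libraries, departures numbered 32 and 78 and calls of clone A1 against WT 51. In these fits 11.3%, 27.9% and 23.3% of all genes were called. The block gave 11 calls in the libraries of experiments 10 and 11, and 14 for the change over 8 libraries. There 1.65% and 7.77% of all genes were called. In the 6 libraries the block left the counts of clone A2 calls within 1.5 times, at 253 and 250. The causes were not tested. Leaving out 1 library at a time gave 200 to 247 calls and medians of -0.5309 to -0.4766 against clone A1, and 208 to 249 calls and medians of -0.5204 to -0.4603 against WT. Departures ranged from 6 to 16 and from 16 to 46. Against clone A1 they were fewest without the clone A2 library of experiment 16, at 6, that of experiment 15, at 8, or the clone A1 library of experiment 15, at 10. Against WT they were 16 and 19 without the WT library of experiment 16 or 15, and 18 and 24 without the clone A2 library of experiment 16 or 15. Calls of clone A1 against WT ranged from 8 to 18, from 0 to 73 in experiments 10 and 11 and from 0 to 20 for the change, with medians of -0.0157 to 0.0195, -0.1003 to 0.0083 and -0.0157 to 0.0914. Where an arm kept 1 library, it was assumed to vary like the other groups. For 30 named genes the alternatives gave 330 uncentred values of clone A2 against clone A1. Of these, 320 kept their direction and side of the threshold, 8 lost the call, 2 gained it and 0 reversed. Departures and the other contrasts are not among them. Of the 69 members with the lowest counts, 42 were called lower against clone A1, and the part of depth in this was not tested.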
